A study of Mus musculus with 12 samples.

Results

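The ISG15 conjugation pathway is described here through 5 mouse genes, found in the deposited count table by the Ensembl identifiers that map to their symbols. They are Isg15, the ubiquitin-like modifier itself, Uba7, its activating enzyme (E1), Ube2l6, its conjugating enzyme (E2), Herc6, its main ligase in the mouse (E3), and Usp18, the protease that takes ISG15 off its substrates. All 5 were found among the 56093 entries of the table, and all 5 passed the filter on low counts that left 14089 genes for testing.

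ISG15 is made as a precursor, is joined to lysines of other proteins by the E1, E2 and E3 in turn, and can also leave the cell as a free protein. The genes of this pathway are classical interferon-stimulated genes: their promoters are read by interferon-activated STAT and IRF factors, and type I interferons are their best-known inducers. Usp18 has another role that needs no protease activity, since it binds the IFNAR2 chain of the type I interferon receptor together with STAT2 and dampens signalling there.

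The cells were B16, a mouse melanoma line, carrying a short hairpin RNA (shRNA) against RFP as the control (shRFP) or against Sdc1, which encodes the heparan sulfate proteoglycan syndecan-1 (shSdc1). Each was left unstimulated or given the cytokine IFNγ at 10 ng/ml for 24 h, so that 4 groups of 3 libraries were compared, and every cell in the study carried a hairpin. Whether a line was a clone or a pool, and how many hairpins were used, is not given in the sources used here. No label ties the libraries of a group to separate cultures, and the p-values then reflect the spread among these libraries alone, which may be technical.

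Library totals ran from 14337771 to 21548940 counts. Sdc1 read 73.9 to 76.4 CPM (counts scaled to the size of the library, with TMM factors, as are all levels here) in shRFP and 22.1 to 25.7 CPM in shSdc1, and with IFNγ 79.6 to 103 against 25.1 to 27.0 CPM, so the labels held in every library. The replicate 3 library of shSdc1 stood apart from its 2 partners, with a chi-square per degree of freedom of 59.8 and 60.8 against 2.33 to 7.55 for all other pairs within a group. The 7 melanocyte markers were all expressed and summed to 17245 to 17292 CPM in shRFP, 12940 to 13369 in shSdc1, 16614 to 18170 in shRFP with IFNγ and 11747 to 13170 in shSdc1 with IFNγ. The 9 leukocyte markers summed to 2.49 to 3.38, 8.50 to 8.92, 5.73 to 8.38 and 15.8 to 16.6 CPM in the same order, nearly all of it Cd68 and Lyz2, while Cd3e, Adgre1, Itgax and Siglech were at 0 in every library. Fibroblast markers (4 genes, Dcn at 0) summed to 44.0 to 47.7, 17.6 to 20.2, 21.4 to 23.4 and 13.0 to 13.8 CPM, and endothelial markers (3 genes, Kdr at 0) to at most 0.430 CPM in any library. These sums moved with the knockdown, as do the results below, and their part in those results was not tested.

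The promoter of Isg15 is shown first because the motifs that interferon-activated factors read can be seen in it. RefSeq promoter windows on GRCm38.p6 were found for 4 of the 5 genes, and the 250 bases before the annotated start were searched on both strands. The core of the interferon-stimulated response element (ISRE) was taken as a GAAA block, any 2 bases and another GAAA block, and the core of the interferon-gamma activated site (GAS) as TTCNNNGAA. A shorter IRF core, AANNGAAA, which lies inside every match to the ISRE core, was added after the sequences had been seen. Capitals mark matches to any of these motifs, and each sequence reads 5′ to 3′ on the strand of its gene, from 250 bases before the start. Isg15 lies at chr4:156200819-156201068 (minus strand), Ube2l6 at chr2:84798578-84798827 (plus strand) and Herc6 at chr6:57580742-57580991 (plus strand).
Isg15: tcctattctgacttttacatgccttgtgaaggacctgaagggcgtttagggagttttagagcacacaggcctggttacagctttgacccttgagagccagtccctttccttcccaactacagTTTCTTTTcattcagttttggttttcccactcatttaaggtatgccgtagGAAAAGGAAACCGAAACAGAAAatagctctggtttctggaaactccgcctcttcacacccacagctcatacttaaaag
Ube2l6: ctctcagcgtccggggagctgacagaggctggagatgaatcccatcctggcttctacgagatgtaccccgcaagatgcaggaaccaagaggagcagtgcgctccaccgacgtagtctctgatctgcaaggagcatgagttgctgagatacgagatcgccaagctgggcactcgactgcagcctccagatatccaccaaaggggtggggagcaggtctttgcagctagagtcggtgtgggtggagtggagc
Herc6: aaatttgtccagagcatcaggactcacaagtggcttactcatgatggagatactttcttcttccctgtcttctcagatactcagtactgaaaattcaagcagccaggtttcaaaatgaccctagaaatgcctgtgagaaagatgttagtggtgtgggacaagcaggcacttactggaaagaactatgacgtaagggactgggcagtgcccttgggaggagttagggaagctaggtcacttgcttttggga

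Isg15 held 3 overlapping matches to the ISRE core in 1 unbroken run from -78 to -57, counted from the base before the start as -1, and a separate match to the IRF core on the opposite strand from -128 to -121. Uba7 held 1 match to the IRF core, TTTCACTT as read on the strand of the gene, from -27 to -20 in chr9:107975317-107975566 (plus strand), a stretch that the GENCODE M21 model already counts as part of the gene. Neither Ube2l6 nor Herc6 held a match to any of the 3 motifs in these windows, and none of the 4 windows held the GAS core. Among 32851 RefSeq promoter windows of the same length, 2.98% held the ISRE core, 7.02% the GAS core and 21.3% the IRF core. These matches describe letters in short windows and were not tested as binding sites.

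Without IFNγ the pathway was expressed at low levels in both lines. Isg15, the modifier, read 3.10, 3.62 and 2.21 CPM in shRFP replicates 1 to 3 and 3.40, 3.69 and 3.60 CPM in shSdc1. Uba7, the E1, was near the lower limit of what was counted, at 0.684, 1.07 and 1.04 CPM in shRFP and 1.28, 1.63 and 1.10 CPM in shSdc1, values that rest on 15 to 26 counts per library. Ube2l6, the E2, read 11.6, 9.37 and 10.8 CPM in shRFP and 9.84, 7.26 and 8.74 CPM in shSdc1. Of these 3 genes, Uba7 alone had ranges that did not overlap between the lines. Herc6, the E3, was the most counted of the 5, at 24.3, 22.0 and 21.1 CPM in shRFP and 26.5, 28.5 and 26.1 CPM in shSdc1, again without overlap. Neither Uba7 nor Herc6 was called different between the lines (edgeR adjusted p = 0.109 and 0.068). How many of all genes tested had ranges without overlap was not counted. Usp18, the deconjugase, read 1.87, 1.78 and 1.93 CPM in shRFP and 1.28, 1.81 and 2.87 CPM in shSdc1, where the highest value came from the replicate 3 library that stood apart.

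With IFNγ all 5 genes were higher in every library of both lines than in any library without it. Isg15 reached 69.7, 65.9 and 69.0 CPM in shRFP and 132, 134 and 114 CPM in shSdc1. Uba7 reached 64.6, 61.4 and 60.4 CPM in shRFP and 88.6, 87.8 and 87.0 CPM in shSdc1. For both, each shSdc1 library lay above each shRFP library. Ube2l6 was the exception: it reached 183, 182 and 178 CPM in shRFP and 172, 174 and 166 CPM in shSdc1, ranges that also did not overlap but with shSdc1 below. Herc6 reached 73.7, 58.5 and 82.9 CPM in shRFP, the widest spread of any gene and group with IFNγ (a coefficient of variation of 17.2%), and 120, 133 and 127 CPM in shSdc1. Usp18 reached 14.3, 17.8 and 14.7 CPM in shRFP and 34.3, 38.2 and 33.3 CPM in shSdc1. Herc6 and Usp18 thus had every shSdc1 library above every shRFP library when IFNγ was present. The share of all genes tested with such a separation was not counted here either.

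**Figure D1:**
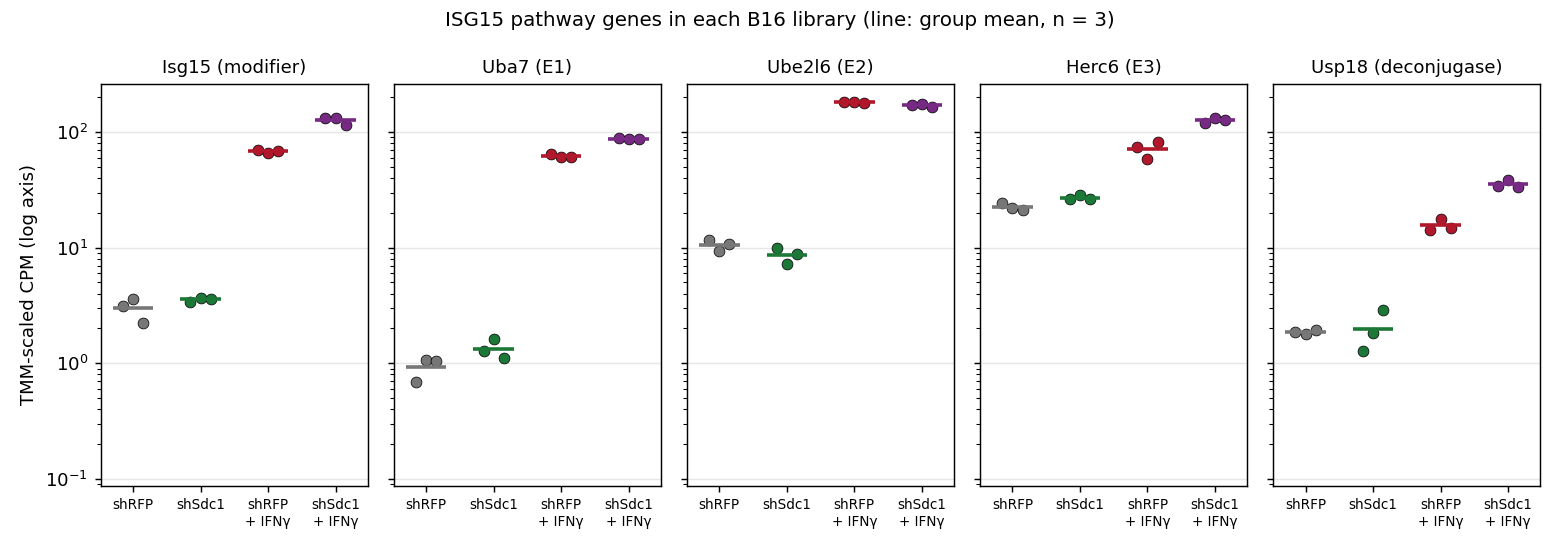
TMM-scaled CPM (log axis) of the 5 genes in each of the 12 libraries, with points for libraries and lines for group means (n = 3). All 5 genes sit higher with IFNγ, and with IFNγ the shSdc1 points lie above the shRFP points for Isg15, Uba7, Herc6 and Usp18 and below them for Ube2l6.

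Levels were compared between genes per kilobase of exon, with exon lengths from GENCODE M21. In shRFP the order by mean CPM per kb was Ube2l6 at 5.32 ± 0.57 (SD, n = 3), Isg15 at 3.94 ± 0.94, Herc6 at 2.42 ± 0.18, Usp18 at 0.667 ± 0.028 and Uba7 at 0.139 ± 0.032, and the first 2 overlapped in range. In shSdc1 it was Isg15 at 4.72 ± 0.20, Ube2l6 at 4.31 ± 0.65, Herc6 at 2.91 ± 0.13, Usp18 at 0.712 ± 0.291 and Uba7 at 0.199 ± 0.040, again with the first 2 overlapping. With IFNγ the modifier and its E2 were far above the other enzymes. In shRFP with IFNγ, Ube2l6 at 90.7 ± 1.4 and Isg15 at 90.2 ± 2.7 CPM per kb overlapped, followed by Uba7 at 9.28 ± 0.33, then Herc6 at 7.72 ± 1.33 and Usp18 at 5.59 ± 0.68, which overlapped each other. In shSdc1 with IFNγ, Isg15 at 168 ± 14 CPM per kb stood alone above Ube2l6 at 85.5 ± 2.1, and Herc6 at 13.6 ± 0.7, Uba7 at 13.1 ± 0.1 and Usp18 at 12.6 ± 0.9 each overlapped the next in range. Uba7 was the lowest of the 5 in both lines without IFNγ and not in either line with it.

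The first comparison asked what IFNγ did in control cells. In shRFP all 5 genes rose, against 17.2% of all genes tested that were called higher. Uba7, the E1, rose by 6.09 ± 0.11 on the log2 scale (SE), a 68.3-fold change and rank 70 of 14089 genes by log2 fold change. Isg15 rose by 4.49 ± 0.10 (22.5-fold, rank 100), Ube2l6 by 4.08 ± 0.08 (17.0-fold, rank 117), Usp18 by 3.07 ± 0.17 (8.37-fold, rank 166) and Herc6 by 1.66 ± 0.10 (3.17-fold, rank 273). The largest adjusted p of the 5, by the edgeR quasi-likelihood test with Benjamini-Hochberg adjustment over all genes, was 7.1e-11, for Herc6. The median log2 fold change over all genes tested was -0.01. With upper-quartile scaling the split over all genes moved from 2422 higher and 2024 lower to 1759 higher and 2811 lower, and the 5 calls stayed as they were. In bulk samples such as these, a change in the share of cells that express a gene and a change in the RNA of each cell cannot be told apart.

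In shSdc1 cells IFNγ also raised all 5 genes, where 17.5% of all genes tested were called higher. The log2 fold changes were 6.04 ± 0.10 for Uba7 (65.6-fold), 5.15 ± 0.10 for Isg15 (35.5-fold), 4.31 ± 0.08 for Ube2l6 (19.8-fold), 4.15 ± 0.16 for Usp18 (17.7-fold) and 2.22 ± 0.09 for Herc6 (4.67-fold). The largest adjusted p by the edgeR quasi-likelihood test was 3.5e-13, for Herc6, and the median over all genes was 0.00. Upper-quartile scaling moved the split over all genes from 2469 higher and 1826 lower to 2047 higher and 2495 lower and ended none of the 5 calls. Herc6 was the gene with the smallest fold change in both lines, and it was also among those with the highest CPM before IFNγ.

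Without IFNγ, 0 of the 5 genes were called higher in shSdc1 and 1, Ube2l6, was called lower, against 14.0% and 14.6% of all genes tested. Ube2l6 fell by 0.31 ± 0.10 on the log2 scale (adjusted p = 0.0227, edgeR quasi-likelihood test), although its ranges overlapped between the lines. That call ended with limma-voom (adjusted p = 0.0618), with a fit of the 2 compared groups alone (0.0796) and when shRFP replicate 1 (0.151), shRFP replicate 3 (0.0556), shSdc1 replicate 2 (0.145) or shSdc1 replicate 3 (0.0535) was left out. The log2 differences of the others were 0.24 for Isg15 (95% interval -0.09 to 0.57), 0.56 for Uba7 (0.11 to 1.00), 0.26 for Herc6 (0.04 to 0.48) and 0.10 for Usp18 (-0.41 to 0.60), with adjusted p of 0.286, 0.109, 0.068 and 0.814 in the same test. Usp18 changed sign, to -0.27, without shSdc1 replicate 3. Herc6 passed without shRFP with IFNγ replicate 2 (adjusted p = 0.00688) or replicate 3 (0.0259), with the DESeq2 Wald test (0.0328), with no filter on low counts (0.00268) and with the 2 groups fitted alone (0.0126).

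With IFNγ present, 4 of the 5 genes were higher in knockdown than in control cells, where 18.9% of all genes tested were called higher and 17.4% lower. Usp18, the deconjugase, rose most, by 1.18 ± 0.12 on the log2 scale (2.26-fold, adjusted p = 3.6e-07, edgeR quasi-likelihood test). Isg15 itself rose by 0.90 ± 0.07 (1.86-fold, adjusted p = 7.3e-09 in that test), Herc6 by 0.82 ± 0.09 (1.77-fold, 4.6e-07) and Uba7 by 0.50 ± 0.06 (1.41-fold, 1.9e-06). Each of the 4 held under all 20 alternatives. The E2 did not follow: Ube2l6 differed by -0.08 ± 0.06 with a 95% interval of -0.21 to 0.04 (adjusted p = 0.285, edgeR), so a rise of the size seen in the other 4 lay outside its interval. The median over all genes was 0.02. By rank among 14089 genes the 5 stood at 446 for Usp18, 731 for Isg15, 840 for Herc6, 1668 for Uba7 and 9213 for Ube2l6. The 9 leukocyte markers, above, summed to 15.8 to 16.6 against 5.73 to 8.38 CPM in this comparison, and 6 of the 7 melanocyte markers fell. Their part in the result was not tested.

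**Figure D2:**
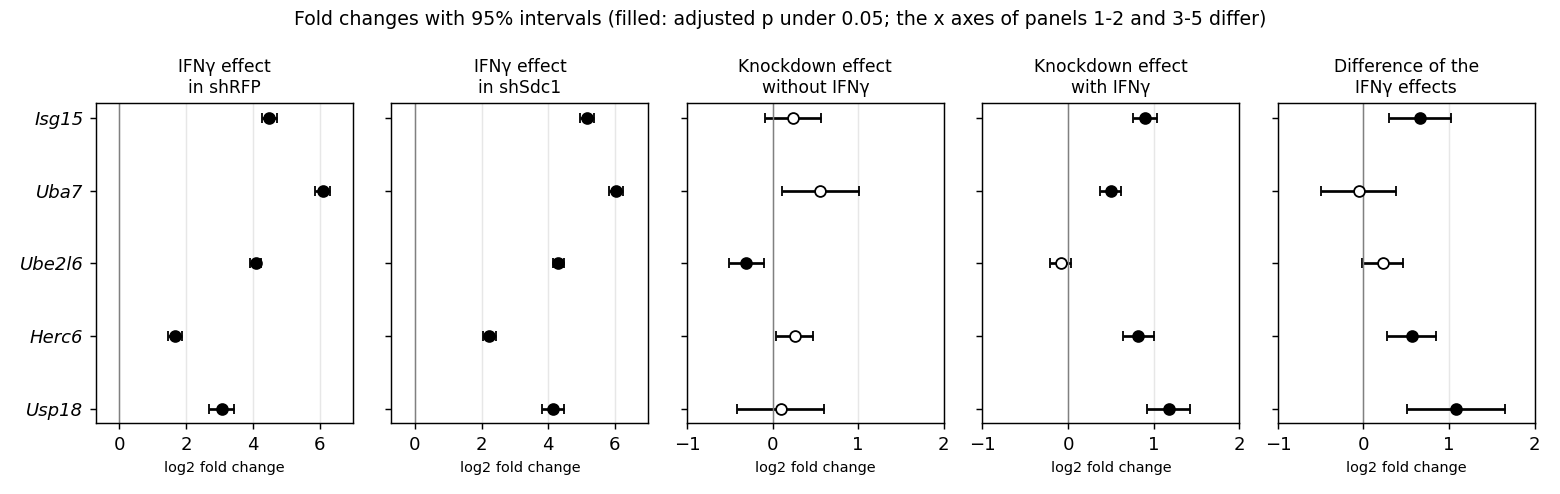
Log2 fold changes of the 5 genes with 95% intervals in each comparison, filled where the adjusted p was under 0.05. IFNγ raised all 5 in both lines (panels at left), and with IFNγ the knockdown raised all but Ube2l6, whose value was -0.08.

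Whether IFNγ acted more strongly in either line was tested as the interaction of the 2 factors, which uses the same 12 libraries as the comparisons above. The IFNγ effect was larger in shSdc1 for 3 of the 5 genes and smaller for 0, against 4.58% of all genes tested called higher and 5.15% called lower. The log2 difference of the effects was 1.08 ± 0.27 for Usp18 (adjusted p = 0.0177, edgeR quasi-likelihood test), 0.66 ± 0.17 for Isg15 (0.0228) and 0.56 ± 0.13 for Herc6 (0.0130). Ube2l6 differed by 0.22 (95% interval -0.02 to 0.46, adjusted p = 0.224) and Uba7 by -0.06 (-0.50 to 0.38, adjusted p = 0.917) in the same test. The median over all genes was 0.02.

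These 3 calls depended on single libraries, and all lost ones kept their direction. The Isg15 call ended without shRFP replicate 1 (0.63, edgeR adjusted p = 0.0745), shRFP replicate 2 (0.52, 0.107), shSdc1 replicate 1 (0.62, 0.0675) or shSdc1 replicate 3 (0.67, 0.0509), and with limma-voom (0.63, 0.104). The Herc6 call ended without shRFP replicate 1 (0.50, adjusted p = 0.0531) and the Usp18 call without shRFP replicate 1 (1.08, 0.0556) or shSdc1 replicate 1 (0.84, 0.0594). Without shSdc1 replicate 3, the library that stood apart, the difference for Usp18 was 1.44 (edgeR adjusted p = 0.00238) and that for Herc6 0.54 (0.0315). The number of genes called over the whole table was 1371, and 838, 834, 801 or 835 without shRFP replicate 1, shRFP replicate 2, shSdc1 replicate 1 or shSdc1 with IFNγ replicate 2. Uba7 changed sign without shRFP replicate 1 (0.16) or shSdc1 replicate 2 (0.11).

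In CPM, the level that IFNγ added was 1.89 times as large in shSdc1 as in shRFP for Isg15 (123 against 65.2 CPM, differences of group means), 1.41 times for Uba7 (86.5 against 61.2), 2.02 times for Herc6 (99.4 against 49.2) and 2.43 times for Usp18 (33.3 against 13.7). For Ube2l6 it was 0.951 times (162 against 170). Uba7 gained more CPM in shSdc1 than in shRFP, while its log2 fold changes in the 2 lines were 6.04 and 6.09.

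Ratios within a library do not depend on how libraries are scaled, and they set the RNA of each enzyme beside that of the modifier. Protein amounts and activities were not measured. Per kb of exon, the ratio of Ube2l6 to Isg15 was 0.993, 1.05 and 0.976 in shRFP with IFNγ and 0.492, 0.493 and 0.549 in shSdc1 with IFNγ. The 2 groups did not overlap, and the log2 ratio differed by -0.98 (exact permutation test, two-sided, p = 0.1, the smallest that 3 against 3 libraries can give). Uba7 to Isg15 gave 0.105, 0.105 and 0.0989 in shRFP with IFNγ and 0.0757, 0.0741 and 0.0859 in shSdc1 with IFNγ, a log2 difference of -0.39 without overlap (exact permutation p = 0.1). Both ratios were thus lower in every knockdown library with IFNγ than in any control library with it. Without IFNγ the same log2 differences were -0.60 for Ube2l6 (exact permutation p = 0.2) and 0.24 for Uba7 (exact permutation p = 0.6), each with overlapping ranges.

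For the ligase and the protease the ratios overlapped between the lines. Herc6 to Isg15 was 0.0861, 0.0723 and 0.0978 in shRFP with IFNγ and 0.0738, 0.0806 and 0.0902 in shSdc1 with IFNγ, overlapping ranges with a log2 difference of -0.06 (exact permutation p = 0.8). That sign turned without shRFP with IFNγ replicate 3 (0.04) or shSdc1 with IFNγ replicate 1 (0.01). Usp18 to Isg15 was 0.0556, 0.0731 and 0.0578 against 0.0703, 0.0774 and 0.0789, a log2 difference of 0.29 with overlap (exact permutation p = 0.2). With 3 libraries in each group, none of the 4 ratio tests with IFNγ could reach a p of 0.05, and adjusted over the 4 by Benjamini-Hochberg the exact permutation p was 0.2 for Ube2l6 and Uba7, 0.267 for Usp18 and 0.8 for Herc6.

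**Figure D3:**
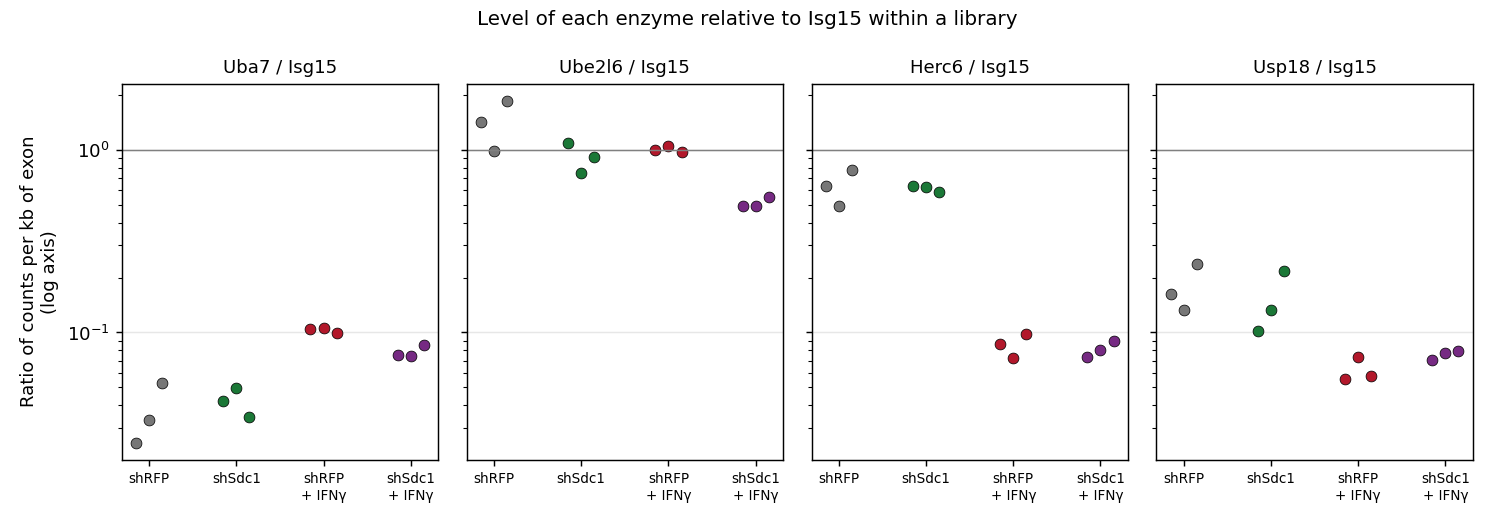
Ratio of each enzyme to Isg15 in counts per kb of exon (log axis), with 1 point per library. With IFNγ the ratio of Ube2l6 lies near 1 in shRFP and between 0.492 and 0.549 in shSdc1, while those of Herc6 and Usp18 overlap between the lines.

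Over the 12 libraries the profiles of the 5 genes differed mainly in the size of the IFNγ step. Each profile was log2(CPM + 0.5) centred on its mean, and the root mean square (rms) distance between 2 profiles measured how unlike they were. Isg15 lay at nearly the same distance from Uba7 (0.503) and Ube2l6 (0.509), and Uba7 and Herc6 were the farthest apart at 1.82. The added 0.5 compresses low levels, so distances that involve genes near 0 CPM without IFNγ, among them Uba7, Sp100, H2-T23, H2-Ab1 and Psmb8, depend on it. Pearson correlations between members ran from 0.934 to 0.995, a description in which all points share the IFNγ contrast. Outside the pathway, Isg15 lay closest to Sp100 (rms distance 0.218), Rtp4 (0.226) and H2-T23 (0.262). Rtp4 read 2.97 CPM in shRFP and 3.36 CPM in shSdc1, and 85.6 and 117 CPM once IFNγ was given to each. Uba7 lay closest to Ifit3 (0.169), Parp14 (0.213) and H2-Ab1 (0.229), and Ube2l6 to Psmb8 (0.204), Ifitm3 (0.207) and Nod1 (0.216). Psmb8, an immunoproteasome subunit, read 0, 0, 6.85 and 7.88 CPM in the 4 groups in that order. Herc6 lay closest to Tlr3 (0.107), Il15ra (0.181) and Flt4 (0.181), and Usp18 to Trim12a (0.214), Isg20 (0.232) and Tnfsf10 (0.236). Tlr3, a receptor for double-stranded RNA, read 10.7, 13.4, 37.2 and 61.1 CPM, the nearest profile to any member.

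Other enzymes reported to act on ISG15 were read from lists, together with relatives of the member enzymes that need not act on ISG15. Beside the counts on each list stand the shares of all genes called in that comparison, given above. With IFNγ, 14.4% of all genes tested were called lower in shRFP and 13.0% in shSdc1. Of 9 further ligases, E2 enzymes and HERC proteins tested, 3 rose with IFNγ in shRFP (median 0.04) and 2 in shSdc1 (median 0.07), and 0 fell. Trim25, a ligase also reported for ISG15, rose by 1.98 ± 0.08 and 2.24 ± 0.08 on the log2 scale. Herc3 rose by 0.22 in each line and Ube2l3 by 0.17 in shRFP. With IFNγ the knockdown raised 1 of the 9, Herc3 (0.18, edgeR adjusted p = 0.0154), and lowered 0 (median -0.03), and Trim25 differed by -0.05 ± 0.07 (0.616). Without IFNγ it lowered Trim25 by 0.31 and Ube2e2 by 0.29 and raised Herc3 by 0.18. The interaction called 0 of the 9 by edgeR. Of the 5 other proteases tested that have been reported to act on ISG15, 3 rose and 1 fell with IFNγ in shRFP (median 0.13). The interaction called 0 of the 5 by edgeR. Usp2 rose by 0.58 and 0.52 with IFNγ in shRFP and shSdc1 and by 0.44 with the knockdown in the presence of IFNγ, while Usp5 fell by 0.13 in that last comparison.

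Most of the listed transcription factors and other regulators of transcription were induced by IFNγ in both lines. Whether any of them drives the pathway genes in these cells was not tested. Of 8 tested, 7 rose in shRFP (median 4.17) and 7 in shSdc1 (median 4.31), with Irf3 as the remaining gene, which fell by 0.22 in shSdc1. Irf8 had 0 counts without IFNγ and was at least 30.2-fold higher with it in shRFP, against a floor of 3 counts over the group, and setting it to that bound left the median as it was. With IFNγ the knockdown raised 4, Stat2 by 0.53 ± 0.05, Irf7 by 0.88 ± 0.14, Nlrc5 by 0.33 ± 0.06 and Irf2 by 0.22 ± 0.08, and lowered Irf3 by 0.27 ± 0.07 (median of the 8, 0.20, edgeR). Without IFNγ it raised 1, Irf1, by 0.48 ± 0.08 (median 0.14). STAT2 and IRF9 are parts of the complex that reads the ISRE, and Irf9 differed between the lines by 0.09 ± 0.05 with IFNγ (edgeR adjusted p = 0.175).

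Stat2 read 284, 269 and 259 CPM in shRFP with IFNγ and 394, 398 and 377 CPM in shSdc1 with IFNγ, without overlap. The IFNγ effect was larger in shSdc1 for Stat2, by 0.50 ± 0.09 (edgeR adjusted p = 0.00182), and smaller for Irf1, by -0.55 ± 0.10 (0.00194). For Irf9 the effects differed by -0.04 ± 0.09 (edgeR adjusted p = 0.832).

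The genes listed as encoding targets of ISG15 were drawn up as targets induced by interferon. Their rise with IFNγ was therefore largely set by that choice. Of 11 tested, 10 rose with IFNγ in shRFP (median 3.12) and in shSdc1 (median 3.24), and Irf3 rose in neither line. Of all genes tested, 17.2% and 17.5% were called higher there. With IFNγ the knockdown raised 9 (median 0.59), led by the antiviral genes Ifit1 (1.09 ± 0.07), Mx1 (1.01 ± 0.08), Mx2 (0.84 ± 0.14) and Ifit3 (0.76 ± 0.04), and lowered 2, Irf3 (-0.27) and Rnf213 (-0.18 ± 0.06). Without IFNγ it raised 4 and lowered 2 (median 0.23), and the 2 lower genes were Mx1 (-0.56 ± 0.17) and Rnf213 (-0.69 ± 0.06). For the knockdown with IFNγ, 18.9% of all genes tested were called higher and 17.4% lower, and without IFNγ 14.0% and 14.6%. The IFNγ effect was larger in shSdc1 for 7 of the 11 and smaller for 0 (median 0.41). Over all genes tested, those shares were 4.58% and 5.15%. The log2 differences were 1.58 ± 0.19 for Mx1, 1.34 ± 0.34 for Mx2, 0.78 ± 0.15 for Ifit1 and 0.52 ± 0.08 for Rnf213.

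At the type I interferon receptor, where Usp18 acts as a brake, the chain it binds changed far less than Usp18 did. Ifnar2 rose with IFNγ by 0.34 ± 0.09 in shRFP and 0.55 ± 0.09 in shSdc1 and differed between the lines by 0.04 ± 0.09 with IFNγ (edgeR adjusted p = 0.755). Ifnar1 passed in none of the 5 comparisons. Of the 6 partners listed, the knockdown with IFNγ raised Stat2 and Jak1 (0.15 ± 0.05), lowered 0 and left 4 that did not pass (median 0.09). The IFNγ effect was larger in shSdc1 for Stat2 and for the kinase Tyk2 (0.28 ± 0.07) and smaller for Skp2 (-0.33 ± 0.07), a subunit of a ubiquitin ligase that acts on Usp18.

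Transcripts of the interferons themselves were nearly absent. Of 21 interferon genes in the table, 19 had 0 counts in all 12 libraries, and Ifna4 and Ifnz had 1 count each. A count of 0 over the 12 libraries allows up to 0.0152 CPM, 3 counts of the summed total, and covers counting error only. For the receptor of IFNγ and its kinases, 4 genes were tested, and with IFNγ the knockdown raised 3 of them, Ifngr1 by 0.29 ± 0.09, Ifngr2 by 0.24 ± 0.07 and Jak1 by 0.15 ± 0.05 (edgeR, median 0.20), while the interaction called 0. Of the chains for type III interferon, Il10rb was lower in the knockdown with IFNγ by 0.61 ± 0.06 and its IFNγ effect differed by -0.32 ± 0.09. Itgal and Itgb2, the chains of the integrin that binds free ISG15, had 26 and 78 counts over the 12 libraries and were not tested.

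Among ubiquitin-like modifiers, ISG15 was set beside FAT10 (encoded by Ubd), which is also known as an interferon-induced modifier, and beside the others. Ubd had 1, 0 and 0 counts in shRFP, 0, 1 and 0 in shSdc1, 9, 14 and 14 in shRFP with IFNγ and 148, 118 and 92 in shSdc1 with IFNγ. With IFNγ it was higher in the knockdown by 3.10 ± 0.26 on the log2 scale (edgeR adjusted p = 2.2e-08), with no overlap. The interaction was not called for Ubd (adjusted p = 0.399), with 1 count in each group without IFNγ. Nub1, which binds FAT10, rose with IFNγ by 1.27 ± 0.05 and 1.26 ± 0.05 and differed between the lines by 0.04 ± 0.05 with IFNγ.

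For 59 genes of the ubiquitin, NEDD8, SUMO, UFM1, URM1 and autophagy conjugation systems, IFNγ raised 10 and lowered 6 in shRFP. Of all genes tested, 17.2% were called higher and 14.4% lower there. The median of the 59 was 0.03 and the range -0.64 to 0.59. Its low end was Rps27a, which was uneven among the shRFP libraries (346, 97.5 and 258 CPM). The largest rise among the 59 was that of Ubb, a polyubiquitin gene (0.59 ± 0.05). With IFNγ the knockdown raised 6 of the 59 and lowered 11, against 18.9% and 17.4% of all genes tested. The median was -0.01 and the range -0.53 (Ddrgk1) to 0.41 (Ranbp2). The IFNγ effect was larger in shSdc1 for 0 of the 59 and smaller for 3, Ube2m (-0.31 ± 0.07), Ufc1 (-0.29 ± 0.08) and Gabarap (-0.24 ± 0.07). Among 24 other ubiquitin proteases of the USP family, IFNγ raised 3 in shRFP, led by Usp12 (0.85 ± 0.05) and Usp25 (0.57 ± 0.05), and lowered 3. With IFNγ the knockdown raised 6 of the 24 and lowered 2, within -0.40 to 0.40, against 1.18 for Usp18. The 24 leave out the USP proteases already listed as acting on ISG15, of which Usp2 rose by 0.44 in this comparison. The same shares of all genes tested, 18.9% and 17.4%, stand beside these counts.

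**Figure D4:**
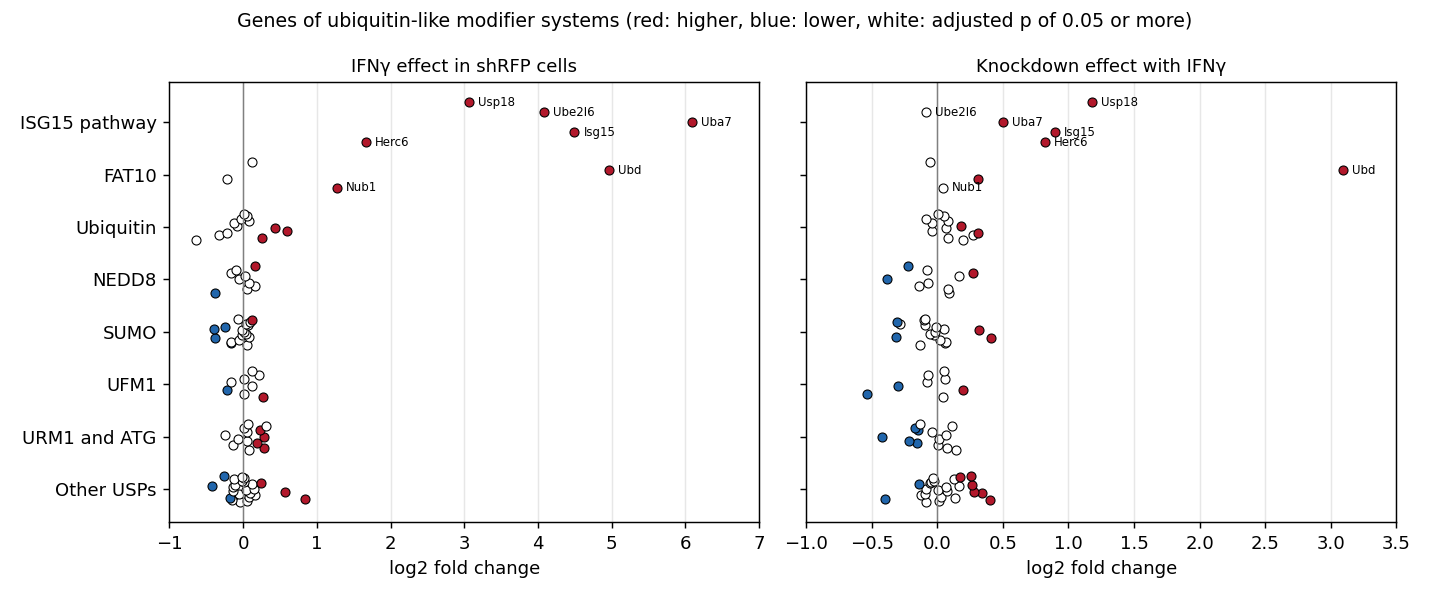
Log2 fold changes of genes in each ubiquitin-like modifier system, with IFNγ in shRFP (left) and with the knockdown in the presence of IFNγ (right), coloured where the adjusted p was under 0.05. The ISG15 genes and Ubd lie to the right of nearly all genes of the other systems in both panels, apart from Ube2l6 at right.

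Some counts of the pathway may be shared with other loci. Gm20661 overlaps Uba7 on the same strand and had 123 to 241 counts per library, Gm44148 overlaps Usp18 on the opposite strand with 1 to 9 counts, and the strand setting of the counting is not given in the sources used here. A copy-like entry, AC151275.1, matched 482 bases of Isg15 at 95.2% identity and had at most 6 counts. Ube2l6 shared 498 bases at 90.6% identity with D10Wsu102e, which had up to 2118 counts.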

How the data were processed

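RNA was measured in 12 libraries (4 groups of 3), and the authors deposited 1 table of whole-number raw counts for 56093 gene entries. Per the submitters' processing notes, the build was GRCm39 and the tools were Trimmomatic, HISAT2 2.0.5 and HTSeq. Neither the annotation nor the strand setting is given in the sources used here. GENCODE M21 on GRCm38 supplied symbols (52083 entries matched) and exon lengths, and RefSeq on GRCm38.p6 the promoter windows. Gene coordinates from GENCODE M21 are not given because its build differs from GRCm39.

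Of the 27472 entries with a count, filterByExpr (minimum count 10, minimum total 15) kept 14089. After TMM scaling, edgeR 4.0.16 (R 4.3.3) fitted its quasi-likelihood model to the 12 libraries together, with a mean for each group (common biological coefficient of variation 0.0633, residual degrees of freedom 8). Tests were two-sided with Benjamini-Hochberg adjustment over all genes at 0.05 and no fold minimum, and each SE was the absolute log2 fold change divided by the root of its F statistic. Where a large fold rests on few counts, such an SE can fall below the counting error. Ratios were tested by exact permutation over libraries. Shared sequences of at least 300 bases at 90% identity were found with BLAST 2.17.0. Summaries and figures used Python 3.11.15 and matplotlib 3.10.9, and the edgeR test was tried on simulated counts.

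The members and gene lists were chosen with earlier results of these data known. A listed gene that is not reported here was left out of the list counts and medians. Named genes were the members, Sdc1, up to 4 called genes per list and comparison by size of change (all of them for a count of 5 or fewer), and the 3 nearest profiles of each member among 11292 genes with an official symbol whose mean reached 1 CPM in any group. The alternatives were DESeq2 1.42.0 size factors, upper-quartile scaling, the DESeq2 Wald test, limma-voom (limma 3.58.1), a minimum of 1 CPM in 3 libraries or no filter at all, a block for the replicate number, the compared groups fitted alone, and each library left out in turn.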

Additional observations from a re-analysis of the deposited data

Results flagged for a closer look

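The IFNγ effect differed between the lines, by the interaction test of edgeR, for 3 of the 5 pathway genes. The log2 effect was larger in shSdc1 by 0.66 for Isg15, by 0.56 for Herc6 and by 1.08 for Usp18. Of 128 genes tested on the pathway and comparison lists, which leave the 5 out, 9 had a larger effect in shSdc1 (7.03%) and 6 a smaller one (4.69%). Of all genes tested, 4.58% and 5.15% did. The 128 include the 59 genes of other modifier systems and the 24 other USP proteases, and in both sets 0 had a larger effect. Of the 9, 7 were on the list of 11 ISG15 targets, which was drawn up as induced by interferon. The 9 were Mx1 (1.58), Mx2 (1.34), Ifit1 (0.78), Rnf213 (0.52), Stat2 (0.50), Ifit3 (0.48), Adar (0.41), Eif2ak2 (0.36) and Tyk2 (0.28). The 6 were Irf1 (-0.55), Skp2 (-0.33), Il10rb (-0.32), Ube2m (-0.31), Ufc1 (-0.29) and Gabarap (-0.24). The calls for Isg15, Herc6 and Usp18 each ended when shRFP replicate 1 was left out, at 0.63, 0.50 and 1.08.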

How the results depend on the processing

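For the 5 genes in the 5 comparisons, 473 of 495 values under 20 alternatives kept their direction and their side of the threshold, 14 lost the call, 5 gained it and 3 changed sign. The 10 IFNγ results and the 5 results of the knockdown with IFNγ were among those that kept both throughout. For Ube2l6 without IFNγ the knockdown value that lost its call was -0.31 with limma-voom and -0.31 with the compared groups alone, and it ranged from -0.41 to -0.20 over the libraries left out. Herc6 in that comparison gained the call at 0.27 with the DESeq2 Wald test, 0.26 with no filter and 0.26 with the compared groups alone, and ranged from 0.22 to 0.33 over the libraries left out. Usp18 there ran from -0.27 to 0.34. For the interaction, Isg15 lost its call at 0.63 with limma-voom, and leaving out single libraries gave 0.52 to 0.80 for Isg15, 0.43 to 0.68 for Herc6, 0.84 to 1.44 for Usp18 and -0.19 to 0.16 for Uba7. The cause of these changes was not tested. Genes called in the interaction ranged from 801 to 2015 over the libraries left out, 389 to 1005 of them higher and 412 to 1010 lower. The log2 ratio of Herc6 to Isg15 ranged from -0.18 to 0.04, with 0.043 without shRFP with IFNγ replicate 3 and 0.0091 without shSdc1 with IFNγ replicate 1. The interaction of Sdc1 turned to 0.013 without shRFP with IFNγ replicate 3.

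The labels give the groups the same replicate numbers, but same-numbered libraries did not deviate together (correlations of -0.068 to 0.028, and 2 of 12 matched their own number best), so the numbers were not taken as pairs. With the replicate number as a block, 1028 genes were called in the interaction in place of 1371, and Isg15 gave 0.65, Herc6 0.57 and Usp18 1.09. No call of the 5 genes changed under the block. Depth limits Uba7 and Usp18 most, at 15 to 26 and 21 to 47 counts per library without IFNγ.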
